A study of Homo sapiens with 14 samples.

Results

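The sites described here are adenosines in a DRACH motif (A, G or T, then A or G, then A, C, and A, C or T) for which the deposited table of m6A sites gives neither a gene nor an exon. There were 22420 of them among 407343 unique sites, 5.50% of all sites and 14.3% of those in a DRACH motif, chosen from annotation and motif only and called unannotated DRACH sites below. N6-methyladenosine (m6A) is a methyl mark that the METTL3-METTL14 enzyme complex writes on nascent RNA, mostly in DRACH motifs. In messenger RNA it is densest in long internal exons, near stop codons and in the last exon, and it also lies in long noncoding RNAs, introns and read-through transcripts, where reader proteins act on the stability and processing of the RNA. GLORI measures it base by base: glyoxal and nitrite turn unmethylated A into inosine, which is read as G, while m6A stays A, so that the share of A among A and G reads is the m6A level of a site.

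The libraries were made from polyadenylated RNA of human cancer cell lines. CAOV3 cells (ovarian) were treated for 24 h with 1 uM STM3675, a compound of a study on inhibition of METTL3, or with the solvent DMSO. The ovarian lines COV644, EFO21 and SKOV3, the lung carcinoma line A549 and the oesophageal line OE21 had DMSO for 24 h and no STM3675 libraries, so that the response rests on 1 line. Each of the 7 groups had 2 libraries, 14 in all. The labels do not say whether libraries of a group came from separate cultures, so p-values measure the spread between these libraries, which may be technical. In the m6A model per site that spread enters as 1 dispersion shared by all sites. Its p-values therefore follow read depth and do not reflect how far apart the 2 libraries of a single site lie. A site was listed if at least 1 DMSO library had 20 reads and a level of 25% there, which favours sites that are high with DMSO. In all sums of reads over sites, a read that covers several sites was counted at each of them. Listed sites had 14001366 to 28601061 reads per library, of which 530816 to 928243 lay on unannotated DRACH sites. Their median depth was 10.0 to 20.0 reads per library, against 20.0 to 42.0 reads for the 133847 DRACH sites in annotated exons.

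Set against RefSeq gene spans (GRCh38.p14), most of these positions were not between genes. RefSeq spans on the same strand or of unknown strand covered 20264 of the 22420 sites (90.4%). Spans of protein-coding genes on the same strand held 12109 sites (54.0%), those of noncoding genes 4786 (21.4%), and spans whose strand the tables do not give 3369 (15.03%). The biotypes of these spans included 6417 sites in lncRNA genes and 1243 in transcribed pseudogenes. Outside these spans, 274 sites lay up to 1 kb past a gene end, 381 sites 1 to 5 kb past it and 250 sites up to 5 kb before a gene start. Another 614 sites lay 5 to 50 kb past a gene end and 119 sites antisense to a gene, and 518 had none of these places. Places were assigned in this order, so sites of the earlier ones may also lie inside a gene of the opposite strand. RefSeq exons were not used here, so a position inside a span may be intronic or in an exon that the study's annotation lacks, and "unannotated" refers to the study's table alone.

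The sites came in runs. With gaps of at most 1000 nt on 1 strand, 14709 sites (65.6%) fell into 2437 clusters of 3 or more sites, with a median of 4.0 sites over 544 nt. Of these clusters 331 held 10 or more sites and the largest held 121. Neighbouring unannotated sites on a strand were a median of 254 nt apart, against 128 nt for exonic DRACH sites. Of the gaps between neighbours, 62.2% were within 1000 nt, against 75.6% for exonic DRACH sites, so runs were not particular to unannotated sites. The motif makeup leaned toward motifs that end in T: GGACT made up 17.4% of unannotated and 15.7% of exonic sites, TGACT 12.3% and 8.60%, GGACA 10.4% and 12.8%, and GGACC 5.58% and 8.51%. These shares are descriptions of the listed sites and were not tested.

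RefSeq sequence was at hand for 302 unannotated DRACH sites in windows from 250 bases before to 50 after a gene start, and at all 302 the 5 bases of the table stood at that position. Of these sites 255 lay before the gene start. In CAOV3 94 could be tested and 59 fell with STM3675 (62.8%, where 35.2% of all tested sites and 74.2% of exonic DRACH sites fell, by the test described below). Chosen after their values were seen, all 8 GGACT sites in such windows with at least 50 reads in each CAOV3 library are shown because they share the same 5 bases and differ in level. The capitals mark the motif, and the sequences run 5′ to 3′ with up to 20 bases on either side of its central A. The names give gene and GRCh38 position.
GGPS1 235329020: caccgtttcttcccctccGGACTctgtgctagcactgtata
MGAT4B 179802828: tggagcgtcctgctgcgtGGACT
SPHK1 76385142: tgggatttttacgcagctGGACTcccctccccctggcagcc
RPS25 119018427: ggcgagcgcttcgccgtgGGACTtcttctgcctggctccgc
SEC11A 84716288: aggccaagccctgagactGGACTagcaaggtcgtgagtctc
UBE2D3 102827613: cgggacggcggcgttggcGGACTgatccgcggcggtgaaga
S100A6 153536006: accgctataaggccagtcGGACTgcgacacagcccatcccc
AKT1 104793575: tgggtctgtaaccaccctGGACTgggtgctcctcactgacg

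The site of GGPS1 (chromosome 1, plus strand, 12 bases after the gene start), the gene of geranylgeranyl diphosphate synthase, had m6A levels of 4.00% and 5.77% with STM3675, against 76.7% and 87.9% with DMSO. The site of MGAT4B (chromosome 5, minus strand, 47 bases after the start), which encodes a glycosyltransferase of N-glycan branching, had 14.7% and 14.5% with STM3675, against 76.8% and 85.3% with DMSO. At SPHK1 (chromosome 17, plus strand), the gene of sphingosine kinase 1, the levels were 8.62% and 6.00% with STM3675, against 32.0% and 47.2% with DMSO. These 3 sites and those of RPS25 (chromosome 11) and SEC11A (chromosome 15) passed the test. The other 3 were low in both groups: AKT1 (chromosome 14), which encodes a serine/threonine kinase, had 9.63% and 5.65% with STM3675, against 11.7% and 13.5% with DMSO, and S100A6 (chromosome 1) and UBE2D3 (chromosome 4) did not pass either (adjusted p of 0.351, 0.593 and 0.412 in the model fitted over all sites). The same 5 bases thus carried DMSO levels from 12.6% (AKT1) to 82.3% (GGPS1), as means of 2 CAOV3 libraries.

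RefSeq miRNA entries held 6 unannotated sites, all low in reads. The one with the highest level in CAOV3 with DMSO was in the MIR6840 hairpin (chr7:100356651-100356721, plus strand), shown with the motif in capitals; reads come from polyadenylated RNA that covers the hairpin, not from the mature miRNA.
MIR6840 hairpin: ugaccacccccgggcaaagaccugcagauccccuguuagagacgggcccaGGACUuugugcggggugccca
At position 100356703 its levels were 23.1% and 15.4% with STM3675, against 53.8% and 54.5% with DMSO (26 to 39 reads, adjusted p = 0.00301 in the quasi-binomial model), and its means in the other lines with DMSO ran from 51.4% in COV644 to 65.0% in SKOV3.

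The first comparison asked how the unannotated DRACH sites responded to STM3675 in CAOV3. Sites with at least 20 reads in each of the 4 libraries were tested, 6076 of the 22420 (27.1%), against 70920 of the 133847 exonic DRACH sites (53.0%). Their mean m6A level was 9.78% and 9.92% with STM3675, against 41.4% and 42.8% with DMSO, and the groups did not overlap. The mean fell by 32.2 points, and the exact permutation test over libraries gave p = 0.333, the smallest that 2 against 2 libraries allow. A logistic model with quasi-binomial dispersion, fitted over all 185833 tested sites with Benjamini-Hochberg adjustment and a threshold of 0.05, called 4286 of the 6076 sites lower (70.5%), where 35.2% of all tested sites and 74.2% of exonic DRACH sites were called lower. Of the tested sites, 979 were listed through the CAOV3 DMSO libraries alone, and without them 3849 of 5097 were called lower (75.5%). The shares of all and of exonic DRACH sites without such sites are not given here. The 75.5% is therefore not to be set against 35.2% or 74.2%. The model called 1 site higher (0.0165%), where 0.309% of all tested sites and 0.0508% of exonic DRACH sites were; at an unadjusted p under 0.05 the model had 6 higher, and limma called 2. Both STM3675 values lay below both DMSO values at 84.4% of the unannotated sites and at 49.6% of all tested sites. Leaving out an STM3675 library took the count of lower calls to 2647 (replicate 1) and 2846 (replicate 2), and a fit with the replicate number as a block to 2495.

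**Figure D1:**
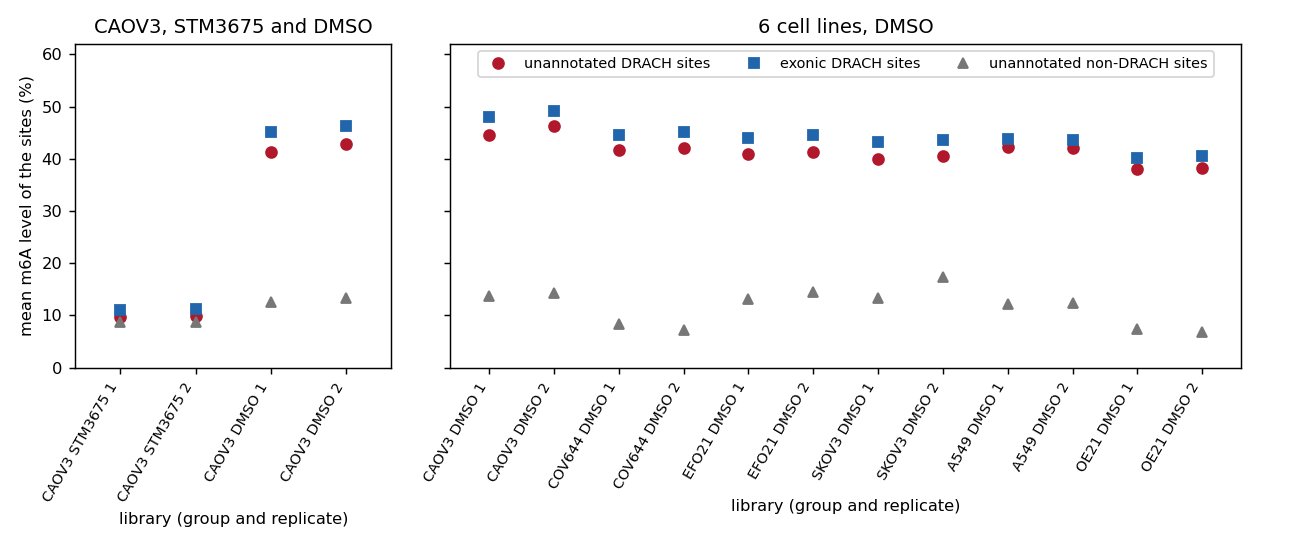
Mean m6A level (%, vertical axis) of unannotated DRACH sites, exonic DRACH sites and unannotated non-DRACH sites, 1 point per library; the left panel holds sites with 20 reads in all 4 CAOV3 libraries, the right panel those with 20 reads in all 12 DMSO libraries. The unannotated DRACH sites were at 9.78% and 9.92% with STM3675, against 41.4% and 42.8% with DMSO, close below the exonic sites in each library.

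The level left with STM3675 was near that of sites without a motif. At 8365 unannotated non-DRACH sites the mean was 8.73% ± 0.0346 with STM3675, against 12.9% ± 0.419 with DMSO (SD, n = 2 each). In the same libraries, exonic DRACH sites averaged 11.1% ± 0.0967 with STM3675, against 45.7% ± 0.756 with DMSO (SD, n = 2 each). The unannotated sites were thus below the exonic ones by 1.23 points with STM3675 and by 3.63 points with DMSO, a fall smaller by 2.398 points (exact permutation p = 0.333, the smallest possible). As a ratio of the STM3675 mean to the DMSO mean the order was the other way, 0.234 for unannotated and 0.242 for exonic sites. Sites were also sorted by their pooled level in the other 5 lines, which the comparison does not use, if these lines had enough reads. The CAOV3 DMSO libraries did take part in listing the sites. Sites low in the other lines may thus be listed through a high CAOV3 DMSO level. Their DMSO level and ratio are therefore not independent of the listing. The gap in the ratio was widest for sites at 0 to 25% in the other lines, where the 2551 unannotated sites had 7.85% with STM3675, against 19.9% with DMSO (ratio 0.395, 40.7% called lower), and the exonic sites 9.04%, against 20.5% (ratio 0.442, 43.1% called lower). For sites at 50 to 75% in the other lines, the 798 unannotated sites had 10.1% with STM3675, against 67.1% with DMSO (ratio 0.150), and the 10160 exonic sites 10.5% with STM3675, against 67.9% with DMSO (ratio 0.155). For sites at 90% or more, the 326 unannotated sites had 25.3% with STM3675, against 95.5% with DMSO (ratio 0.265), and the exonic sites 24.4%, against 96.2% (ratio 0.254).

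**Figure D2:**
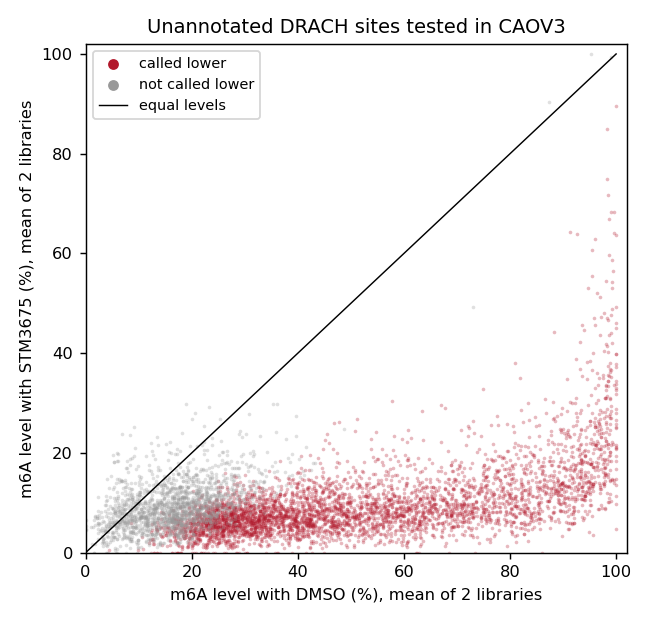
m6A level with STM3675 (vertical axis, %) against that with DMSO (horizontal axis, %), each point 1 unannotated DRACH site and the mean of 2 CAOV3 libraries; red points were called lower, grey ones were not, and the line marks equal levels. Most points lie below the line in a low band, with a mean of 9.85% with STM3675, against 42.1% with DMSO, and points near full methylation with DMSO spread upward.

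The response held across the places where the sites lay. In coding gene spans 2690 of 3972 tested sites fell (67.7%), with a mean of 9.45% ± 0.00955 with STM3675, against 39.7% ± 1.09 with DMSO (SD, n = 2 each). In noncoding gene spans 704 of 922 fell (76.4%), with 10.9% ± 0.233 with STM3675, against 47.9% ± 1.11 with DMSO (SD, n = 2 each). Of the 47 tested sites with none of these places, 40 fell (85.1%), and their mean was 9.43% ± 0.643 with STM3675, against 53.2% ± 0.725 with DMSO (SD, n = 2 each). Level followed motif as well: GGACT sites averaged 11.4% with STM3675, against 53.3% with DMSO, GAACT sites 8.95%, against 47.9%, and TGACC sites 9.27%, against 18.3%. At GGACT the exonic sites were higher, 13.6% with STM3675, against 59.8% with DMSO. Differences between places or motifs were not tested.

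Among sites called lower with at least 50 reads in each library and no overlap of the groups, those with the largest falls, 1 per cluster, were nearly fully methylated with DMSO. The site in NUP50-DT, a divergent transcript beside the nuclear pore gene NUP50 (chromosome 22, 45134396, minus strand, GGACT), had 8.50% and 9.20% with STM3675, against 96.4% and 97.3% with DMSO (249 to 447 reads, adjusted p = 3.17e-152). The site in the span of EPB41L5, a FERM-domain protein of epithelial polarity (chromosome 2, 120104265, GGACT), had 8.78% and 12.1% with STM3675, against 98.8% and 99.1% with DMSO. In the span of XBP1, the transcription factor of the unfolded protein response (chromosome 22, 28795550, GAACT), the site had 12.7% and 17.0% with STM3675, against 99.5% and 99.1% with DMSO. In each of these 3 the STM3675 libraries lay far below the DMSO libraries. The other 7 were in TMEM44-AS1, VPS9D1-AS1, ORAI1 (the pore subunit of store-operated calcium channels), PDE4DIP, LINC00339, RNF4BP and KMT5B (a histone H4 methyltransferase), with falls of 84.3 to 89.1 points. At RNF4BP 44731735 the STM3675 libraries stood apart, 2.00% and 23.5%, against 98.3% and 96.0% with DMSO, on 50 to 75 reads. RNF4BP is a pseudogene by its RefSeq entry, so its reads may be shared with near-identical copies and its values are uncertain.

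The 1 site called higher lay in the span of TCIRG1, which encodes a subunit of the vacuolar proton pump (chromosome 11, 68049476, plus strand, GAACC). It had 22.4% and 16.9% with STM3675, against 8.06% and 2.27% with DMSO, on 44 to 89 reads (adjusted p = 0.0247 in the quasi-binomial model). The call was lost without any 1 of the 4 libraries (adjusted p from 0.0731 to 0.263) and with limma on arcsine values (adjusted p = 0.0765).

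Sites that kept a high level were few. With 50 reads in each library and a DMSO level of at least 50%, 769 of 770 unannotated sites fell (99.9%), as did 14884 of 14885 exonic DRACH sites and 99.87% of all such sites. The unannotated sites had a median ratio of STM3675 to DMSO of 0.149 (quartiles 0.120 and 0.191), against 0.152 for the exonic sites. The ratio of unannotated sites was above 0.5 at 10 sites and above 0.8 at 2. The highest was in PRICKLE2-AS1 (chromosome 3, 64101579, plus strand, AAACC), which had 99.3% and 99.6% with STM3675, against 98.6% and 99.3% with DMSO, on 493 to 1693 reads (adjusted p = 0.605). It was also at 99.3 to 99.5% in the mean of each of the other 5 lines, so that it was high in all 14 libraries. The 24 tested unannotated AAACC sites averaged 16.2% in CAOV3 with DMSO. Whether the A reads at the PRICKLE2-AS1 site are m6A was not tested. The next was in CTBP1-DT, beside the gene of a transcriptional corepressor (chromosome 4, 1251727, GGACT), with 81.2% and 88.6% with STM3675, against 98.8% and 97.8% with DMSO. The site in the span of BCAR3, an adaptor protein of breast cancer antiestrogen resistance (chromosome 1, 93753194, AGACT), had 70.5% and 66.2% with STM3675, against 99.0% and 100% with DMSO. HERPUD2-AS1 35697264 averaged 66.9% ± 3.91 with STM3675, against 98.7% ± 0.0902 with DMSO, and ZFTRAF1 144451285 averaged 58.8% ± 10.6, against 99.2% ± 1.12 (SD, n = 2 each). All but the first of these 5 passed the test as lower.

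Summed over their tested sites, 617 of 633 clusters with 3 or more tested sites were lower with STM3675 (97.5%). Of all clusters and genes 91.5% were, but genes had no such minimum of sites, so the shares are not strictly alike. By the quasi-binomial model 0 clusters were higher, where 0.0278% of all units were; the count was also 0 at an unadjusted p under 0.05 and 0 with limma. The TUG1 cluster (chr22:30969543-30978912, plus strand, 88 sites), in a gene known for its abundant long noncoding RNA and listed as coding by RefSeq, had 83 tested sites, of which 78 fell. Its pooled level was 10.5% and 11.1% with STM3675, against 49.8% and 49.9% with DMSO (adjusted p = 2.09e-25). Single sites of it ran from 4.03% to 27.0% with STM3675, against 6.81% to 98.8% with DMSO. The PEG10 cluster (chr7:94664736-94669466, 39 sites), in an imprinted gene derived from a retrotransposon, had 37 of 39 sites fall, to 16.1% and 17.5% with STM3675, against 61.8% and 63.6% with DMSO. Within it, PEG10 94667187 was among the 5 unannotated sites with the most reads and kept 46.5% and 48.8% with STM3675, against 99.3% and 99.0% with DMSO, on 4526 to 6156 reads. The MACF1 cluster (chr1:39409665-39413023, 46 sites), in the gene of a microtubule-actin crosslinking factor, had 13.8% and 14.1% with STM3675, against 57.9% and 61.7% with DMSO.

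**Figure D3:**
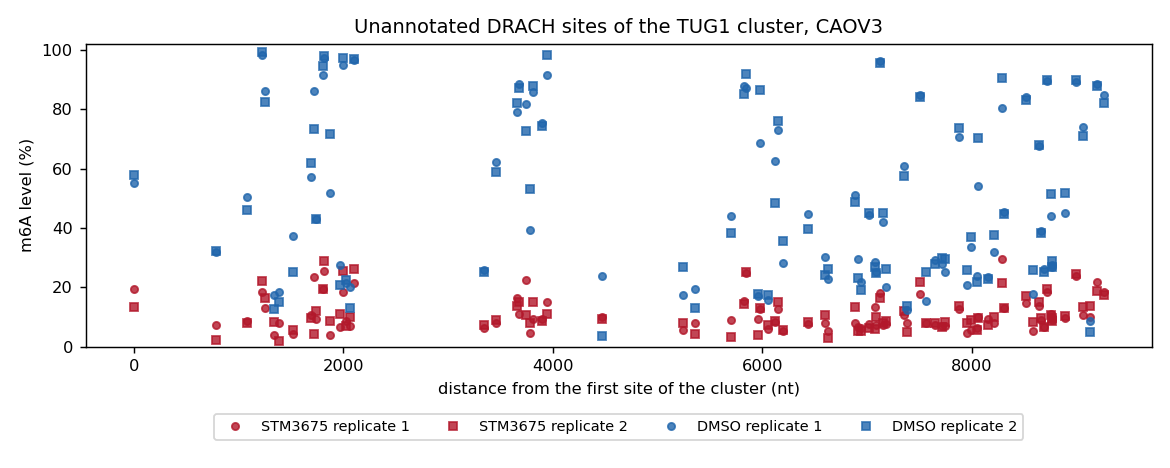
m6A level (%) of the 83 tested sites of the TUG1 cluster in CAOV3, by distance in nt from its first site, with 1 point per library and circles and squares for replicates 1 and 2. High and low sites alternate along the 9370 nt with DMSO, and the STM3675 sites stay between 4.03% and 27.0% as means of 2 libraries.

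The second comparison was the number of reads on the same positions. It depends on how much RNA carries them, and a lower share of reads cannot be told apart from a higher share elsewhere. With STM3675, 3.25% and 3.24% of all reads on listed sites lay on unannotated DRACH sites, against 3.96% and 3.99% with DMSO. The groups did not overlap, and the difference of -0.730 points had p = 0.333 in the exact permutation test, the smallest possible. Over sites that also passed the listing filter in another line the shares were 3.26% and 3.26% with STM3675, against 3.99% and 4.02% with DMSO. The other 5 lines had 3.06 to 3.79% with DMSO, so the CAOV3 DMSO libraries were the highest of all 14.

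Tested with edgeR (quasi-likelihood) beside the exonic DRACH reads of 11968 genes, 653 of 2140 clusters had fewer reads with STM3675 (30.5%) and 272 had more (12.7%), where 20% of all units were called lower and 22.2% higher. Of the genes alone, 18.1% were lower and 24% higher. A site was listed through DMSO libraries only, which favours sites with reads in DMSO, so these counts are no independent test. Exonic sites were listed in the same way but had a higher median depth. What the listing adds to the difference between clusters and genes was not tested. The median log2 fold change of the clusters was -0.24 (quartiles -0.73 and 0.19), against 0.00 for the genes. The clusters with none of these places had a median of -0.86 with 22 of 46 lower, those in noncoding spans -0.28 with 165 of 443 lower, those in coding spans -0.23 with 350 of 1183 lower and those in spans of unknown strand -0.14 with 69 of 306 lower. Of 14 antisense clusters 0 were called lower and 1 higher. Differences between places were not tested. For 1021 clusters in coding spans the exonic DRACH sites of the same gene were also tested, and the median was -0.26 for the clusters and -0.01 for their genes. Of 311 such clusters called lower, the gene itself was lower in 89 and higher in 59. A cluster was more than 1 log2 unit below its gene in 175 cases and more than 1 above it in 43, and the difference between cluster and gene was not tested. Without any 1 library the counts were 191 to 298 lower and 56 to 141 higher, so that each of the 4 libraries moved the count by more than 1.5 times.

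**Figure D4:**
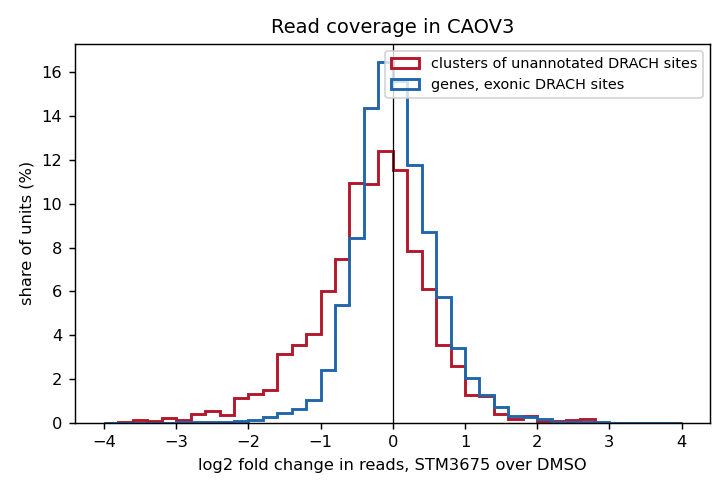
Share of units (%, vertical axis) by log2 fold change in reads, STM3675 over DMSO in CAOV3 (horizontal axis, bins of 0.2), for 2140 clusters of unannotated DRACH sites and for the exonic DRACH sites of 11968 genes. The cluster curve is shifted left, with a median of -0.24, against 0.00 for the genes.

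Among the 10 largest clusters, LINC00205 (chr21:45290676-45297263, 48 sites, a long noncoding RNA) had 75.4 and 79.8 CPM (reads scaled to library size) with STM3675, against 233 and 218 CPM with DMSO (log2 fold change -1.54, adjusted p = 6.43e-08 in edgeR). PEG10 had 2609 and 2589 CPM with STM3675, against 5371 and 4347 CPM with DMSO (log2 fold change -0.90, adjusted p = 5.29e-06). TUG1 did not pass, with 2487 and 2342 CPM with STM3675, against 2669 and 2696 CPM with DMSO (log2 fold change -0.15, adjusted p = 0.122). LINC00205 and PEG10 thus had fewer reads in both STM3675 libraries than in either DMSO library, by more than the spread of the replicates. The cluster past NES was also called lower in edgeR (log2 fold change -2.66, adjusted p = 0.000161), on 21 reads with STM3675, against 106 with DMSO. So was MACF1 (log2 fold change -0.41, adjusted p = 0.00702 in edgeR), which lost its call with only the most covered site per unit (adjusted p = 0.0840). AFAP1-AS1, called higher, is described below.

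The 5 largest called falls were low in reads. They were the clusters in the spans of FUBP3, an RNA- and DNA-binding protein, PDCD6IP-DT, ARHGEF35-AS1, MIR130AHG, the host transcript of a miRNA, and TMEM263-DT, with log2 fold changes of -3.39 to -3.72. MIR130AHG (chr11:57651254-57651835, 4 sites) had 0.792 and 1.27 CPM with STM3675, against 9.26 and 13.1 CPM with DMSO. The FUBP3 cluster had 0 and 10 reads with STM3675, against 47 and 60 reads with DMSO; its gene's exonic sites had a log2 fold change of -0.24 (adjusted p = 0.309), and its call was lost with DESeq2 (adjusted p = 0.195) and, in edgeR, without DMSO replicate 1 (adjusted p = 0.566). All but FUBP3 of these 5 lie in noncoding spans.

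The largest called rises were in ARNT2-DT, AFAP1-AS1, LOC102723834, MORC2 and SMAD6. The SMAD6 cluster (chr15:66706143-66706812, 6 sites), in the span of an inhibitory SMAD of BMP signalling, had 99.6 and 100.8 CPM with STM3675, against 17.1 and 16.7 CPM with DMSO (log2 fold change 2.57, adjusted p = 8.72e-09 in edgeR). The exonic DRACH sites of SMAD6 rose by less, with a log2 fold change of 1.08, and the cluster's own m6A level was 9.90% and 9.85% with STM3675, against 34.97% and 44.2% with DMSO. The MORC2 cluster (chr22:30967109-30967665, 4 sites), in the span of a chromatin-remodelling ATPase, had 26.7 and 19.8 CPM with STM3675, against 3.52 and 3.86 CPM with DMSO, and the gene's exonic sites had a log2 fold change of 0.77. In both clusters the groups were far apart. The other 3 rested on few reads: 46 with STM3675, against 5 with DMSO in ARNT2-DT, 37, against 4 in AFAP1-AS1, and 28, against 3 in LOC102723834, where the ratio per listed read was 6.73 (95% exact interval 2.08 to 34.6, counting error only). A read over several sites of a cluster counts at each, so this interval is too narrow where that occurred. The LOC102723834 call was lost with DESeq2 (adjusted p = 0.0724).

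The third comparison was among the 6 lines with DMSO. The lines listed partly different sites: 12438 of the 22420 (55.5%) passed the filter in 1 line and 1438 (6.41%) in all 6, against 39.3% and 20.1% of exonic DRACH sites. A549 passed 9243 unannotated sites and OE21 5966, the highest and lowest counts, with depth differing between them. At the 1833 sites with 20 reads in all 12 libraries, the mean level was 45.3% ± 1.23 in CAOV3, 42.1% ± 0.175 in A549, 41.9% ± 0.325 in COV644, 41.2% ± 0.264 in EFO21, 40.2% ± 0.421 in SKOV3 and 38.2% ± 0.0797 in OE21 (SD, n = 2 each). The lines differed (range 7.18 points, permutation p = 0.00025 over the 12 libraries), while A549 and COV644 overlapped. The median of unannotated non-DRACH sites differed too, from 3.68% ± 0.239 in OE21 and 3.74% ± 0.728 in COV644 to 12.2% ± 2.89 in SKOV3, and its part in the order was not tested. With that median subtracted, COV644 was highest at 38.1% and SKOV3 lowest at 28.0%. The unannotated sites were below the exonic DRACH sites in 6 of 6 lines, by 2.72 points on average (from 1.57 points in A549 to 3.21 points in CAOV3; exact sign-flip permutation over lines, two-sided p = 0.03125, the smallest possible).

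The quasi-binomial model called 643 of the 1833 sites as differing among lines (35.1%), where 39.5% of all 68804 tested sites and 39.3% of exonic DRACH sites were. With limma on arcsine values 23 were called, and what made the counts differ was not tested. The shares that follow are for unannotated sites, then for all sites and for exonic DRACH sites, each line being set against the mean of the other 5. CAOV3 was higher at 245 sites (13.4%, against 14.3% of all and 18.7% of exonic sites) and lower at 13 (0.709%, against 0.27% and 0.392%). COV644 was higher at 123 sites (6.71%, against 3.83% and 5.94%) and lower at 48 (2.62%, against 2.77% and 2.84%). EFO21 was higher at 51 sites (2.78%, against 4.37% and 2.28%) and lower at 51 (2.78%, against 1.66% and 2.84%). For SKOV3 48 sites were higher (2.62%, against 6.9% and 2.22%) and 78 lower (4.26%, against 2.68% and 4.34%). For A549 57 sites were higher (3.11%, against 2.4% and 2.53%) and 36 lower (1.96%, against 1.91% and 3.12%). For OE21 15 sites were higher (0.818%, against 0.465% and 0.697%) and 101 lower (5.51%, against 7.03% and 9.57%). The shares of unannotated and exonic DRACH sites were thus of like order in each line, and their differences were not tested. Of 188 clusters with 3 or more covered sites, 120 differed among lines (63.8%, where 58.5% of all clusters and genes did, with no such minimum of sites for genes).

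A few sites differed by most of the scale. In KRT10-AS1, an antisense transcript beside the keratin gene KRT10 (chromosome 17, 40834760, plus strand, GGACT), the levels were 95.0% and 93.9% in EFO21, 91.8% and 90.9% in A549, 68.4% and 68.0% in SKOV3, 51.0% and 50.4% in COV644, 32.8% and 36.9% in OE21 and 26.4% and 29.4% in CAOV3, on 208 to 1388 reads. No line overlapped its neighbour in that order, and the site was called as differing (adjusted p = 4.37e-285 in the quasi-binomial model). In NORAD, a long noncoding RNA that binds PUMILIO proteins (chromosome 20, 36049891, minus strand, AGACT), SKOV3 had 36.7% and 31.0%, and the 10 libraries of the other lines had 88.5% to 97.8%. In the ORAI1 span (chromosome 12, 121641533, plus strand, AGACT) OE21 had 20.8% and 32.4% and SKOV3 71.6% and 54.8%, while the 8 libraries of CAOV3, COV644, EFO21 and A549 lay between 97.3% and 100%. These 3 had the largest ranges of all unannotated sites that differed with 50 reads in each library.

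The next 7 by range had 34.7 to 41.2 points between the highest and the lowest line. In the span of ACADVL, the mitochondrial very long-chain acyl-CoA dehydrogenase (chromosome 17, 7222433), EFO21 had 85.5% and 86.5%, above the 47.4% to 66.1% of the other 10 libraries. In that of ARGLU1, a splicing coactivator (chromosome 13, 106558886), CAOV3 had 77.5% and 72.9% and A549 65.9% and 64.2%, above the 39.8% to 50.8% of the other 8. PKD1P4 and HERC2P2, pseudogenes with near-identical copies, are uncertain for that reason, and IGLV5-52, LRR1 and SSBP3 were the others. The IGLV5-52 site also lies in the spans of BMS1P20 and IGL, and the LRR1 site in that of RHOQP1. Which of these transcripts the reads came from is therefore uncertain. With limma 5 of these 7 no longer passed (adjusted p from 0.0588 to 0.0706).

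Sites called for 1 line included SNHG17, a small nucleolar RNA host gene (chromosome 20, 38420676), at 60.7% and 70.2% in CAOV3, against 29.1% to 40.0% in the other 10 libraries; it lost its call without CAOV3 replicate 2 (adjusted p = 0.175 in the quasi-binomial model). OAS3, an interferon-induced enzyme that is activated by double-stranded RNA (chromosome 12, 112944718), had 35.3% and 67.6% in SKOV3, against 14.7% to 28.0% in the other lines, and lost its call without SKOV3 replicate 2 (adjusted p = 0.365 in the quasi-binomial model). UVSSA, GVQW3, IP6K2 and CIB1 were the sites of COV644 (higher and lower), EFO21 (lower) and OE21 (higher), and each lost its call without at least 1 library of its line.

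Reads on the clusters among lines cannot be read as an independent test, since a site was listed through any 1 line in which it had reads and was high. With that, edgeR called 2401 of 2437 clusters as differing (98.5%, where 98.6% of all clusters and genes were called). The largest cluster lay in the span of MUC16, which encodes the mucin that carries the ovarian tumour antigen CA125 (chr19:8945599-8963556, minus strand, 121 sites). It had 865 and 443 CPM in COV644, 196 and 136 CPM in CAOV3 and 146 and 183 CPM in EFO21, and at most 3.56 CPM in SKOV3, A549 and OE21. The 3 lines with reads are ovarian, and the ovarian line SKOV3 had 1.51 and 1.49 CPM. The AFAP1-AS1 cluster (chr4:7772411-7778290, 43 sites), in an antisense noncoding RNA, had 257 and 238 CPM in COV644 and at most 5.63 CPM in any library of the other lines. A cluster of 37 sites that lies partly in the span of FZD10-AS1 (chr12:130147086-130153475, minus strand) had 186 and 188 CPM in COV644, 26.1 and 30.3 CPM in OE21 and at most 2.06 CPM elsewhere.

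PEG10 had 5428 and 4374 CPM in CAOV3, against 71.8 and 78.2 CPM in EFO21, the lowest line. The MACF1 cluster had 7.34 and 7.46 CPM in OE21 and 91.2 to 272 CPM in the libraries of the other 5 lines. TUG1 had reads in every library, from 1048 CPM in OE21 replicate 2 to 3579 CPM in COV644 replicate 1, and its pooled m6A level over 76 shared sites ran from 44.8% ± 0.384 in OE21 to 52.2% ± 0.470 in COV644 (SD, n = 2 each; adjusted p = 2.40e-08 in the quasi-binomial model). A cluster of 37 sites, most of it 5 to 50 kb past the end of NES and some of it overlapping BCAN, had 169 and 148 CPM in EFO21 and 140 and 137 CPM in A549, against 4.77 and 5.08 CPM in CAOV3. The ZNF117 cluster (35 sites), in a zinc-finger gene that shares its locus with the endogenous retrovirus ERV3-1, had 361 and 225 CPM in COV644 and at most 54.6 CPM in the others.

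**Figure D5:**
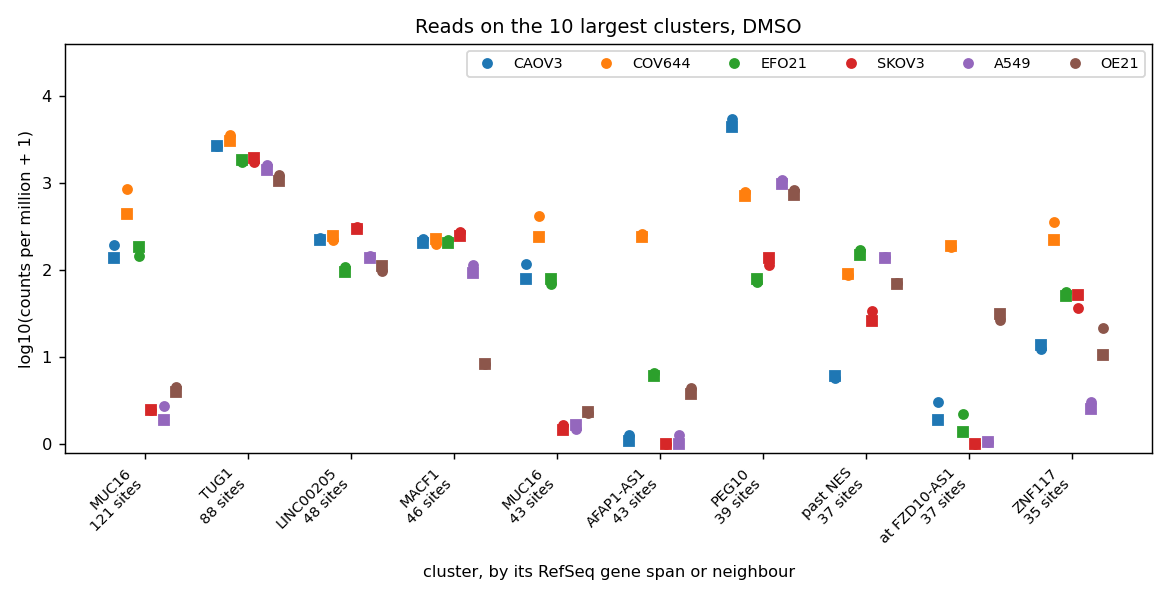
Reads on the 10 clusters with the most sites in the 6 lines with DMSO, as log10(CPM + 1); circles and squares are replicates 1 and 2, colours are lines, and labels give the RefSeq span or neighbour with the number of sites. The MUC16, AFAP1-AS1 and FZD10-AS1 clusters are near 0 in several lines, and TUG1 and LINC00205 have reads in all.

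The remaining sites with the most reads over the 12 DMSO libraries were in the spans of DDX5, TRIM16L, ASPH and GTF2IP1. The site in DDX5, the gene of a DEAD-box RNA helicase (chromosome 17, 64501623, AAACT), had 30035 reads in them and 4.56% and 4.42% with STM3675, against 15.4% and 18.4% with DMSO. Its line means were 27.3% in A549, 26.0% in OE21, 24.7% in EFO21, 23.5% in SKOV3, 16.9% in CAOV3 and 11.98% in COV644. TRIM16L 18735314 had 10.7% and 8.68% with STM3675, against 84.4% and 86.5% with DMSO, and line means of 77.4 to 85.5%. Whether reads at the TRIM16L and GTF2IP1 sites are shared with similar sequences elsewhere was not tested.

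Unannotated DRACH sites inside and outside RefSeq spans of the same or unknown strand could be compared at 1751 and 82 positions covered in all 12 libraries. The mean over lines was 41.5% inside spans, against 40.9% outside, a difference of 0.633 points that was positive in 4 of 6 lines (exact sign-flip permutation p = 0.3125), within the spread between lines. The direction turned at a minimum of 10 reads (-2.74 points, exact p = 0.03125, the smallest possible) and of 50 reads (-0.372 points).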

How the data were processed

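Per the submitters' processing notes, cutadapt and STAR were used with GRCh38; no version or site caller is stated in the labels. The authors deposited, for each site and library, a read count (A plus G) and the fraction of A, so that A reads could be recovered within 1e-06 of a whole number. DMSO and STM3675 columns were told apart by their first letter, D or T. Sites in 2 stretches of the genome are not reported here. The unannotated DRACH sites and the named lists were chosen with earlier results of these data known.

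Sites needed 20 reads in each library compared. In R 4.3.3 a logistic model with quasi-binomial dispersion, moderated with limma 3.58.1 (1.67 in CAOV3, 1.71 over the lines, the same for all sites), was fitted over all sites or units and adjusted by Benjamini-Hochberg at 0.05. It recovered 21% of simulated 0.5-fold and 40% of 0.25-fold changes among 185833 CAOV3 sites, and 77% and 96% among 68804 over the lines. Only a small set of sites was changed in these simulations. Their adjusted threshold was thus stricter than in CAOV3 itself, where 35.2% of tested sites were called lower. The recovered shares therefore do not give the share of real falls that the test missed. Reads were tested with edgeR 4.0.16 (TMM), with DESeq2 1.42.0 as alternative. Clusters are runs of sites with gaps of at most 1000 nt. Strands of 26142 RefSeq spans were unknown. RefSeq sequences are of GRCh38.p14. Named sites and clusters were those with the most sites or reads, the largest changes among calls with 50 reads per library, the highest ratios, and the largest differences of a line. In none of the 7 groups did the 2 replicates agree within sampling noise. Counting intervals treat each count as a molecule and are too narrow where a read covers several sites.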

Additional observations from a re-analysis of the deposited data

How the results depend on the processing

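Of the mean-level and share results, the fall in CAOV3 (-33.0 to -31.5 points when a library was left out), the share of reads (-0.743 to -0.717 points) and the gap to exonic sites over the lines (-3.14 to -2.49 points) kept their direction under all alternatives run. The fall compared with exonic sites (2.08 to 2.502 points without a library) reversed as a ratio (-0.00839). The comparison inside and outside RefSeq spans, chosen after seeing the data, ran from -0.799 to 1.13 without a library and reversed at 10 reads (-2.74, exact p = 0.03125) and at 50 reads (-0.372). Sites called lower in CAOV3 were 2647 to 3699 without a library, 1773 at 50 reads and 2495 with the replicate block; sites called higher were 0 without any library, 0 at 50 reads, 0 with the replicate block, 2 with limma and 2 among sites listed by another line too. In m6A levels of unannotated sites, same-numbered libraries did not deviate together (correlation 0.0182 in CAOV3, -0.0586 to 0.0551 between lines). These correlations cannot exclude a pairing, for example in read coverage, which they do not cover. Clusters called lower in m6A were 1087 of 1133 tested at 10 reads and 187 of 188 at 50 reads, against 617 of 633 in the main fit. The shares over all sites or units at these settings are not given here. Clusters lower in reads were 191 to 298 and higher 56 to 141 without a library, and 287 and 114 with 1 site per unit; the ZNF117 cluster then had -0.32, against 0.07 in the main fit. With the replicate block both MUC16 clusters had fewer reads with STM3675 (adjusted p of 0.00935 and 0.00673 in edgeR).

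Among lines, 304 of 498 tested sites were called at 50 reads and 23 of 1833 with limma, against 643 of 1833 in the main fit. Clusters differing in m6A were 204 of 424 at 10 reads and 34 of 43 at 50 reads, against 120 of 188 in the main fit. Here too the shares over all sites or units at these settings are not given. With limma, higher and lower calls were 42 and 2 in CAOV3, 13 and 7 in COV644, 3 and 0 in EFO21, 0 and 4 in SKOV3, 1 and 0 in A549, 0 and 16 in OE21. At 50 reads, 150 of the 498 sites were higher in CAOV3, 81 in COV644 and 16 in SKOV3. Without a library the higher calls ran 111 to 266 in CAOV3, 43 to 136 in COV644, 27 to 66 in EFO21, 16 to 70 in SKOV3, 24 to 66 in A549 and 3 to 20 in OE21, and the lower ones 6 to 17, 15 to 59, 29 to 63, 50 to 85, 8 to 42 and 21 to 126 in the same order. The cause was not tested, apart from the fewer sites or libraries that some of these alternatives leave. The planned split of sites with a gene but no exon could not be run, as no site had 1 without the other. Depth limits which sites could be tested: 27.1% of unannotated sites had the reads for the test in CAOV3.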
